A study of Mus musculus with 4 samples.

Results

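The genes described here encode the proteins of the cytosolic ribosome, the particle that translates messenger RNA in the cytoplasm. They were chosen by symbol, as every probe whose symbol in the array's probe table is Rpl or Rps followed by a number, with its usual letter suffixes, or is Rpsa or one of the P proteins of the stalk. That gave 60 probes of 57 genes, 35 of the large subunit (Rpl and Rplp) and 22 of the small subunit (Rps and Rpsa), among 16439 genes with a name on the array. The symbol pattern also caught Rps6kl1, which is named after a kinase family and is not a ribosomal protein, and that gene was left out. The RefSeq gene table holds 85 protein-coding symbols of the same form, and 56 of the 57 genes stand in it under the same symbol. The remaining gene, Rps3a, is Rps3a1 there. The others, among them Rplp0, Rplp2, Rps6 and Rps27a, have no probe named in the table used and were not analysed here.

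The RNA came from tissue labelled dorsal raphe nucleus, a midbrain cell group rich in serotonergic neurons that project to the forebrain. The RNA was hybridised to 4 single-colour arrays, 1 per group. The groups were forced-swim-stressed D2R-KO mice, which lack the dopamine D2 receptor, stressed D2LR-KO mice, which lack the long form of that receptor, stressed wild-type mice (WT) and non-stressed WT mice. Every pool was made from 5 mice, all of them C57BL/6J males, 10 weeks old. Stress was a 6-min forced swim on 4 days in a row, with dissection 12 h after the last swim, and there was no array of non-stressed knockout mice. With 1 array per group no value has a replicate error and no difference could be tested, so everything below describes these 4 arrays, their number limits the precision, and a property of an array or pool cannot be told apart from its group.

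Ribosomes are built in the nucleolus and cytoplasm from ribosomal RNA and about equal numbers of each protein, so cells make these proteins in proportion. Many of the mRNAs begin with a C followed by a run of pyrimidines, the terminal oligopyrimidine (TOP) tract, through which mTOR complex 1 and the RNA-binding protein LARP1 control their translation. Neurons carry ribosomes in dendrites as well as in the cell body, and ribosomal protein mRNAs are among the most abundant in brain.

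The TOP tract is the sequence feature that ties these genes together, and 46 of the 57 genes had an entry in the RefSeq promoter table (GRCm38.p6). In 11 of the 46 (23.9%) at least 1 annotated start base was a C followed by at least 4 pyrimidines (C or T), against 813 of 27025 genes in the whole table (3.01%). Windows of 10 bases before and 20 bases from the annotated start base are shown for these 11 genes, with the pyrimidine run in capitals:
Rpl14, chr9:120571507-120571536, plus strand: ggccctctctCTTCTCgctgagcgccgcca
Rpl15, chr14:18270967-18270996, minus strand: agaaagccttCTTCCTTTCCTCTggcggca
Rpl28, chr7:4792955-4792984, plus strand: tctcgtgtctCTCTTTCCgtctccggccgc
Rpl35, chr2:39005112-39005141, minus strand: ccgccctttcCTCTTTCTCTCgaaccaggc
Rpl35a, chr16:33056472-33056501, plus strand: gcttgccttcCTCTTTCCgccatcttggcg
Rpl38, chr11:114668570-114668599, plus strand: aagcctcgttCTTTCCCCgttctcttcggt
Rps10, chr17:27635225-27635254, minus strand: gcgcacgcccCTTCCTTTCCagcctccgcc
Rps15a, chr7:118116128-118116157, minus strand: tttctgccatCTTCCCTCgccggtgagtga
Rps18, chr17:33955646-33955675, minus strand: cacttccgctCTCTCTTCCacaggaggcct
Rps21, chr2:180257369-180257398, plus strand: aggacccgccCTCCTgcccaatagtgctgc
Rps27, chr3:90213629-90213658, minus strand: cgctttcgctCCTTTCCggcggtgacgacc

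The run was 5 bases long in Rps21 and 13 in Rpl15. For the other genes the absence of a run says only that these letters are not at the annotated start.

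Short motifs were searched on both strands of the 300-base promoter entries, 250 bases before and 50 after the annotated start. The Ets family motif CCGGAAG stood in 20 of 46 ribosomal protein genes (43.5%), against 2683 of 27025 genes (9.93%). The YY1 motif AANATGGCG stood in 5 (10.9%), against 2.76% of genes, and the Sp family motif GGGCGG in 26 (56.5%), against 38.2%. The letters TATAAA stood in 3 (6.52%), against 15.7%, and the E-box CACGTG in 4 (8.7%), against 8.09%. Of the motif-bearing starts 4 are printed from 120 bases before to 30 bases after the start base, with CCGGAAG in capitals, because Rps18 and Rps27l were among the genes lower on the stressed WT array and Rpl6 and Rpl38 among the few that were higher there:
Rps18, chr17:33955636-33955785, minus strand: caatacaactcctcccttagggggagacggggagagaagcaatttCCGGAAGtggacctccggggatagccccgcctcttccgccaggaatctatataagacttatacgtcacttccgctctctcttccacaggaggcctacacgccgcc
Rps27l, chr9:66945966-66946115, plus strand: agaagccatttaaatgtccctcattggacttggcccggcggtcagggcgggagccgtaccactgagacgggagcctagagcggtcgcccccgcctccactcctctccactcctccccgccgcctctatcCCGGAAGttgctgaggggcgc
Rpl6, chr5:121204381-121204530, plus strand: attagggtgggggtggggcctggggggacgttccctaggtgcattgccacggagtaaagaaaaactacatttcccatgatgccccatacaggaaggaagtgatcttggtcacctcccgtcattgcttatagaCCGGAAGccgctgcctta
Rpl38, chr11:114668460-114668609, plus strand: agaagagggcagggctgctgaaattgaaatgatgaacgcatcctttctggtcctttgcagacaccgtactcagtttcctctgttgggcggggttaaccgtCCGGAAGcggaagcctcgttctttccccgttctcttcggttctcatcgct

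The printed starts were picked from either side of the stressed WT difference, so that split was set by the choice. Of the 20 genes with the motif, 8 were at least 1.5-fold lower in stressed WT than in non-stressed WT and 2 higher. Of the 26 without it, 5 were lower and 1 higher, where 8.09% of all genes were lower and 7.26% higher. Such a match describes letters and is no evidence of binding.

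The stressed WT array stood apart from the other 3 before any ribosomal gene was considered. Log2 folds of all genes had an SD of 0.42 for stressed WT over non-stressed WT, against 0.22 for D2R-KO and 0.21 for D2LR-KO over the same array. The brightest genes were dimmer on it, with a 99th percentile of deposited intensity of 2948 to 3220 on the knockout arrays, 2101 in stressed WT and 2760 in non-stressed WT. Quantile normalization, used for the folds, raises such bright genes on the stressed WT array, so a fold can differ in sign from the deposited intensities beside it. Between 91.0% and 91.6% of gene probes per array were above the limit set by blank spots. Between pairs of arrays, the log2 differences of 48 positive control spots had SDs of 0.1 to 0.205, a measure of spot error that holds nothing of the mice. The targeted gene, Drd2, had deposited intensities of 20.9 in D2R-KO, 48.3 in D2LR-KO, 43.8 in stressed WT and 26.8 in non-stressed WT, above the detection limit on all 4 arrays. Whether its probe lies in the deleted part was not analysed here, so it does not check the labels. Of the serotonergic markers of the labelled tissue, Tph2 had deposited intensities of 264.6 in D2R-KO, 151.5 in D2LR-KO, 10.7 in stressed WT and 31.4 in non-stressed WT, and Slc6a4 had 89.6, 43.5, 6.8 and 11.6 in the same order. Of 6 such markers, 4 were at least 1.5-fold higher in D2R-KO and 3 in D2LR-KO than in non-stressed WT, and 1 was lower in stressed WT. Of all genes 0.575% were higher in D2R-KO and 0.743% in D2LR-KO, and 8.09% were lower in stressed WT. How these markers relate to the ribosomal protein genes was not tested. In pooled tissue fewer cells of a type and less RNA per cell cannot be told apart.

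Most of the ribosomal protein genes lay among the brighter genes on every array, and all 57 were above the detection limit on all 4. Their median deposited intensity was 2554 in D2R-KO, 2638 in D2LR-KO, 1076 in stressed WT and 2189 in non-stressed WT, on a scale where each array's median probe is 25. Intensities reached 1000 for 35 genes on each of the other 3 arrays and for 31 on the stressed WT array. They were under 100 for 15 genes in D2LR-KO and for 14 on each of the other arrays. The 75th percentile of all genes was 111.6 in stressed WT and up to 140.6, in D2R-KO. The range within the family was wide, down to 2.4 in D2R-KO, 1.7 in D2LR-KO, 1.9 in stressed WT and 1.4 in non-stressed WT. Brightness depends on each probe as well as on the mRNA, so the genes are not ranked against each other. Rpl10, Rpl3l and Rps12 stayed close to the blank spots on all arrays (deposited intensity 4.8 or less), and their small folds say little. By deposited intensity stressed WT was the lowest of the 4 arrays for 47 of 57 genes and the highest for 7, and after quantile normalization it was the lowest for 35 and the highest for 15.

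**Figure D1:**
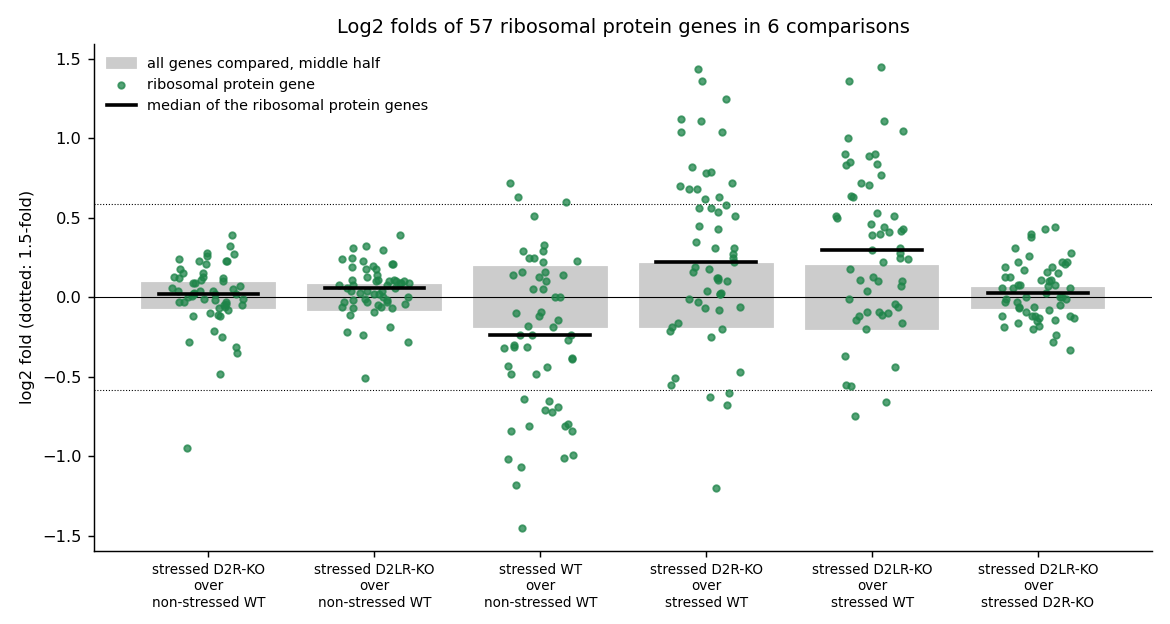
Log2 folds of the 57 ribosomal protein genes (points, 1 per gene) in the 6 comparisons, each over the array named last; the black bar is their median, the grey box the interquartile range of all genes compared and the dotted lines 1.5-fold. The 3 comparisons without the stressed WT array have medians of 0.02, 0.06 and 0.03, and the 3 with it have medians of -0.24, 0.22 and 0.30 and a wider scatter.

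Stressed D2R-KO was set against non-stressed WT, a comparison in which genotype and stress change together. The family stood close to the control array, with a median log2 fold of 0.02 against 0.01 over all 15655 genes compared. A gene was counted when it differed at least 1.5-fold (0.585 on the log2 scale). None of the 57 was higher by that measure, where 0.575% of all genes were, and 1 was lower (1.75%), where 1.48% of all genes were. That 1 gene was Rplp1, an acidic phosphoprotein of the ribosomal stalk, which recruits the GTPases of translation. Its deposited intensity was 2591.2 in D2R-KO, 3305.0 in D2LR-KO, 4097.7 in stressed WT and 4395.9 in non-stressed WT. Both knockout arrays were thus below both WT arrays. Its log2 fold over non-stressed WT was -0.95 in D2R-KO (1.93-fold lower), -0.51 in D2LR-KO (1.42-fold lower) and 0.25 in stressed WT. The D2R-KO value was -0.87 with arrays scaled to a common median, -0.76 from the deposited values and -2.27 when the background came from around each spot. For stressed WT the value turned to -0.32 with the common median and to -0.10 from the deposited values.

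The next largest differences in D2R-KO were smaller than 1.5-fold. Rps18, a protein of the head of the small subunit, was at -0.48, with 4450.4 in D2R-KO and 4991.6 in non-stressed WT, but at 1.69 with the local background, the one read around each spot. Rpl39, a small protein lining the exit tunnel, was at -0.35, Rps7 at -0.31 and Rpl10a at -0.28. On the higher side Rps20 was at 0.39 (61.4 in D2R-KO and 37.7 in non-stressed WT), Rpl11 at 0.32, Rps27l at 0.28, Rps26 at 0.27 and Rpl17 at 0.26. With the stalk gene set aside, the whole family thus lay between -0.48 and 0.39 in this comparison.

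Stressed D2LR-KO against non-stressed WT gave a similar picture. The median log2 fold was 0.06, against 0.00 over 15622 genes, and none of the 57 genes reached 1.5-fold in either direction, where 0.743% of all genes were higher and 1.40% lower. The folds ran from -0.51 for Rplp1 to 0.39 for Rpl22, which had 326.8 in D2LR-KO and 237.4 in non-stressed WT. Rps3, a protein at the mRNA entry of the small subunit, was at 0.32, Rps27 at 0.31, Rpl26 at 0.30, Rpl36 at 0.25, Rpl32 at 0.24 and Rps9 at 0.23. Rpl41, the smallest ribosomal protein, was at -0.28 (8174.5 in D2LR-KO and 9511.4 in non-stressed WT) and Rpsa at -0.24. Both knockout comparisons share the control array, so a probe that read high or low on that array would move both. With the background taken around each spot, 17 genes were at least 1.5-fold higher in each knockout and 4 lower in D2R-KO and 2 in D2LR-KO, where 7.02% and 6.93% of all genes were higher and 5.02% and 4.76% lower. With arrays scaled to a common median, the D2LR-KO median turned to -0.05.

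The knockouts against each other, a comparison with neither WT array, again differed little at most genes. No gene reached 1.5-fold, where 0.664% of all genes were higher in D2LR-KO and 0.332% lower. The median was 0.03 and the folds of D2LR-KO over D2R-KO ran from -0.33 for Rpl5 to 0.44 for Rplp1. Rps7 (4938.6 in D2LR-KO and 3987.5 in D2R-KO) was at 0.43, Rps18 at 0.40, Rpl39 at 0.38 and Rpl32 at 0.31. Rpsa was at -0.28, Rpl17 at -0.24, Rpl10a at 0.28 and Rpl13a, often used as a reference gene, at 0.26. The second Rpl5 probe was at 0.08, so the lowest value rests on 1 of 2 probes. With the background taken around each spot, 5 members passed 1.5-fold upward, where 2.99% of all genes did, and 4 downward, where 2.47% did, and with a common median the family median turned to -0.14.

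**Figure D2:**
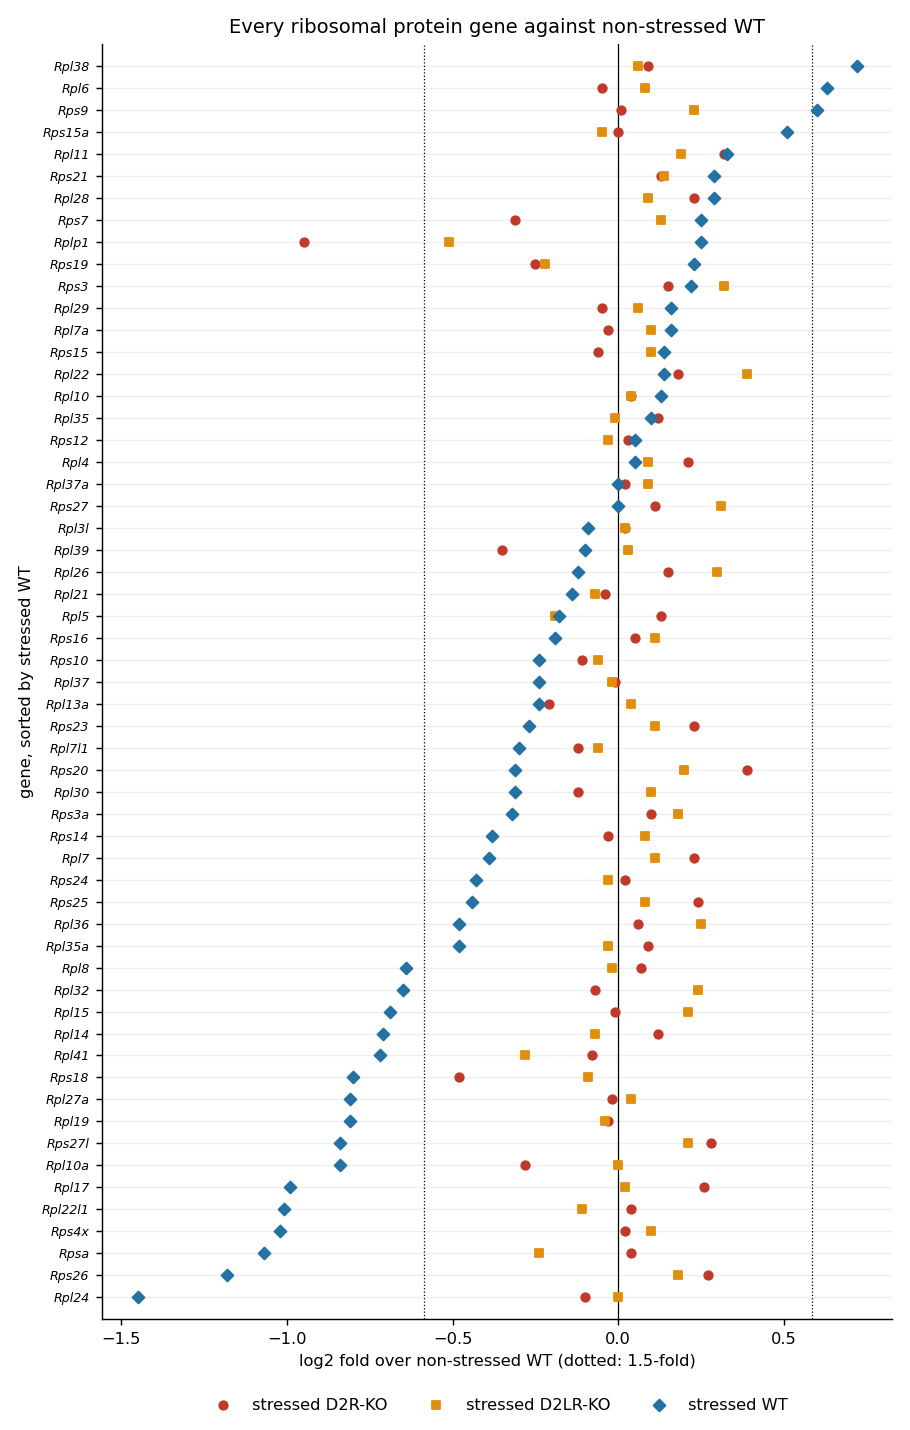
Log2 fold over non-stressed WT of every ribosomal protein gene (rows, sorted by the stressed WT value) on the D2R-KO (circles), D2LR-KO (squares) and stressed WT (diamonds) arrays; dotted lines mark 1.5-fold. The knockout points lie within 0.48 of 0 except for Rplp1, whereas stressed WT runs from -1.45 (Rpl24) to 0.72 (Rpl38).

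Stressed WT over non-stressed WT is the comparison within the same genotype, in which stress varied together with the pool and the array. More of the family was lower than higher. Of 57 genes 16 were at least 1.5-fold lower (28.1%), against 8.09% of all 15692 genes compared, and 3 were higher (5.26%), against 7.26%. The median log2 fold was -0.24, against 0.00 over all genes, with an interquartile range of the family of -0.65 to 0.14, and 37 of 57 genes lay below 0. The large subunit had 11 of 35 genes lower and 2 higher (median -0.24), and the small subunit 5 of 22 lower and 1 higher (median -0.26).

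The lower genes were led by Rpl24, a large-subunit protein. Its deposited intensity was 2993.2 in D2R-KO, 2994.4 in D2LR-KO, 789.6 in stressed WT and 2786.4 in non-stressed WT. Stressed WT alone was low, by 2.73-fold against non-stressed WT (log2 -1.45). Rps26, which lines the path of mRNA leaving the small subunit and is mutated in some Diamond-Blackfan anaemia, had 2537.1 in D2R-KO, 2180.3 in D2LR-KO, 640.4 in stressed WT and 1799.6 in non-stressed WT. It was 2.26-fold lower in stressed WT (log2 -1.18), and again the other 3 arrays lay well above it.

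Rpsa, which is also known as the laminin receptor, had 136.5 in D2R-KO, 98.8 in D2LR-KO, 40.6 in stressed WT and 123.7 in non-stressed WT, a 2.09-fold lower value in stressed WT. Rps4x, encoded on the X chromosome, had 5681.8, 5673.1, 1919.6 and 4748.6 on the same arrays and was 2.03-fold lower. Rpl17, a large-subunit protein near the exit tunnel with a dim probe here, had 54.9, 39.7, 5.9 and 39.0, and its log2 fold of -0.99 is compressed by the offset of 50 added to every signal. From the deposited values that fold was -2.72. The remaining lower genes were Rpl10a (-0.84), Rpl19 (-0.81), Rpl27a (-0.81), Rps18 (-0.80), Rpl41 (-0.72), Rpl14 (-0.71), Rpl15 (-0.69), Rpl32 (-0.65), Rpl8 (-0.64) and the paralogs Rpl22l1 and Rps27l.

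**Figure D3:**
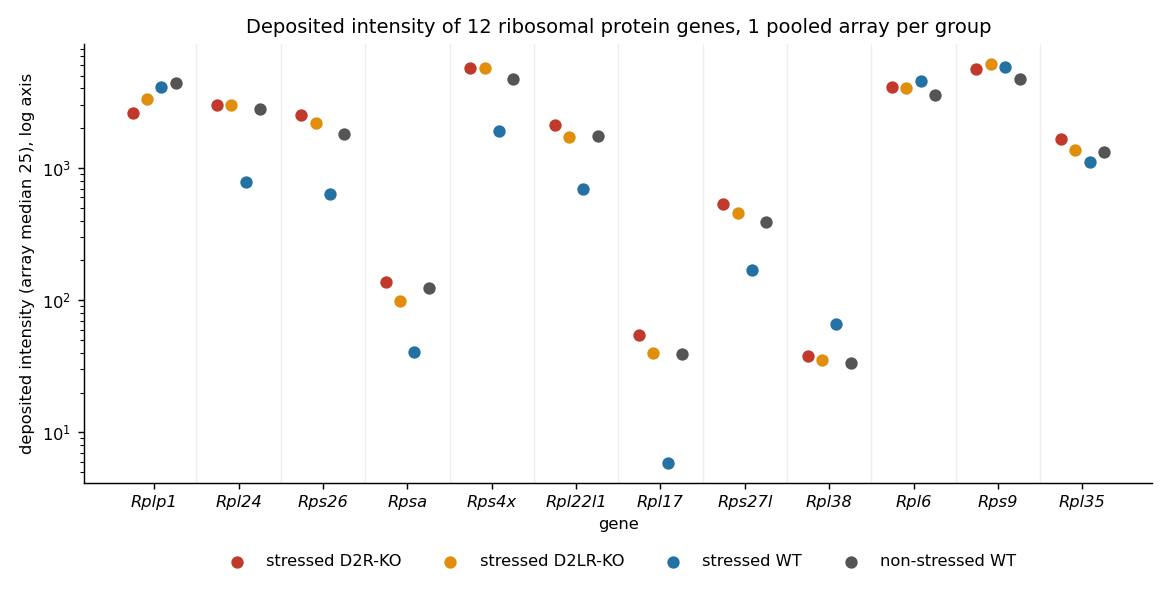
Deposited intensity (log axis, array median 25) of 12 ribosomal protein genes on the D2R-KO, D2LR-KO, stressed WT and non-stressed WT arrays, 1 point per pooled array. For Rpl24, Rps26, Rpsa, Rps4x, Rpl22l1, Rpl17 and Rps27l the stressed WT point lies below the other 3, for Rpl38 and Rpl6 above them, and for Rplp1 both knockout points lie below both WT points.

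The genes that went the other way in stressed WT were few. Rpl38, known in mice for a part in patterning the axial skeleton, had 37.7 in D2R-KO, 35.1 in D2LR-KO, 65.7 in stressed WT and 33.2 in non-stressed WT, a 1.64-fold higher value (log2 0.72). Rpl6 had 4074.1, 4037.4, 4522.1 and 3573.8 on the same arrays (1.55-fold, log2 0.63), and Rps9 had 5617.9, 6134.6, 5852.8 and 4712.2 (1.52-fold, log2 0.60). Rps9 was thus not highest in stressed WT by deposited intensity. Rps15a, at 0.51, fell just short of 1.5-fold. With arrays scaled to a common median, none of the 57 reached 1.5-fold higher. With the local background 2 of these 3 turned, Rpl6 to -0.61 and Rpl38 to -0.02, and Rps9 was at 1.41.

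How many genes were lower depended on the scaling. With a common median 30 of 57 genes were lower and 0 higher (median -0.64), where 16.5% of all genes were lower and 2.68% higher. From the deposited values 28 were lower (median -0.58), where 24.5% of all genes were. Much of that shift was shared by other bright genes, since 1031 other genes with a mean log2 signal of 10 or more had a median of -0.53 with the common median and -0.02 after quantile normalization. Of the family, the 35 genes with a log2 signal of 10 or more had a median of -0.27 after quantile normalization, with 12 lower and 2 higher, against 179 lower and 107 higher of the 1031. The 22 dimmer genes had a median of -0.19. When the background came from around each spot, the family median was -0.01, with 15 genes higher and 12 lower, where 9.89% of all genes were higher and 9.92% lower. Under it 5 of the 16 genes above turned, with Rps18 at 1.31, Rpl15 at 1.17, Rps27l at 0.63, Rpl10a at 0.37 and Rpl27a at 0.04. Of the 16, 8 stayed at least 1.5-fold lower under all 4 other ways of computing the signal, among them Rpl24, Rps26, Rps4x, Rpl22l1 and Rpl17. All 16 did so with the common median, the deposited values and the offset of 16. The count of 8 was thus set by the background around each spot alone.

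**Figure D4:**
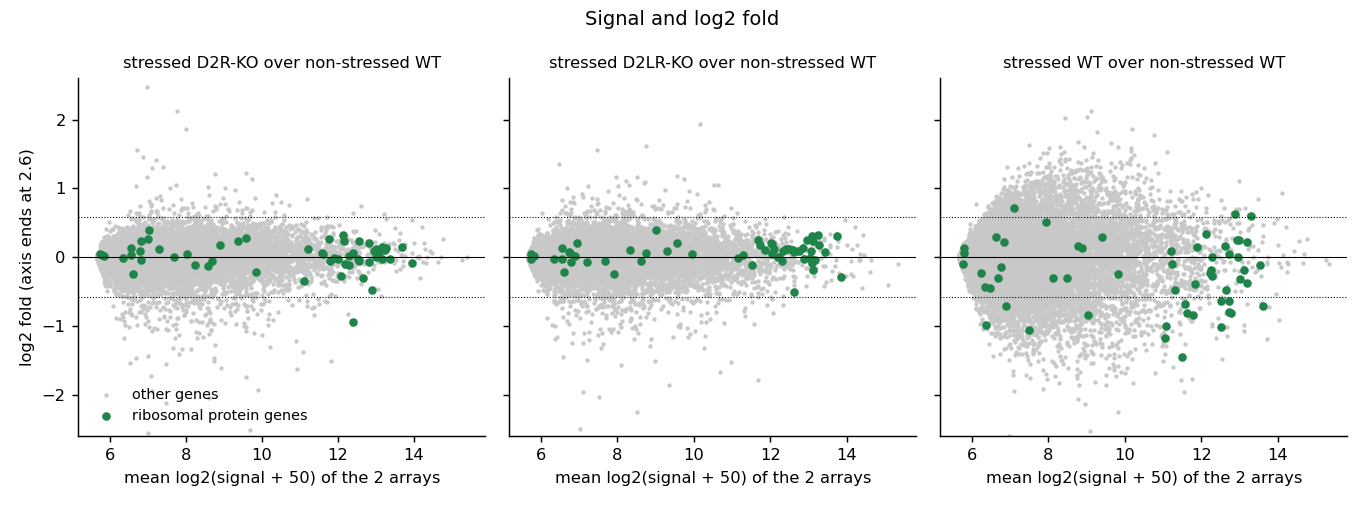
Log2 fold over non-stressed WT (vertical, ends at 2.6 in either direction) against the mean log2(signal + 50) of the 2 arrays, for D2R-KO, D2LR-KO and stressed WT; green points are the 57 ribosomal protein genes, grey points all others, dotted lines 1.5-fold. All genes scatter more on the stressed WT array. Of the ribosomal protein genes there, 24 of 35 with a log2 signal of 10 or more lie below 0, and 13 of the 22 dimmer ones.

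The knockouts over stressed WT are the comparisons in which genotype was varied among stressed animals. These comparisons use the same stressed WT array as the one above, so a gene low on that array is high in both by construction. In D2R-KO 16 of 57 genes were at least 1.5-fold higher (28.1%), against 9.29% of all 15704 genes, and 4 were lower (7.02%), against 8.62%. In D2LR-KO 16 were higher (28.1%), against 8.70% of 15688 genes, and 2 lower (3.51%), against 8.19%. The medians were 0.22 and 0.30.

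Side by side, Rps26 was at 1.44 in D2R-KO and 1.36 in D2LR-KO over stressed WT, Rpl24 at 1.36 and 1.45, Rpl17 at 1.25 and 1.0, and Rps4x at 1.04 and 1.11. The paralog genes Rps27l and Rpl22l1 were at 1.12 and 1.04 in D2R-KO and at 1.05 and 0.90 in D2LR-KO. Rpsa was at 1.11 and 0.83, Rpl27a at 0.79 and 0.85, Rpl14 at 0.82 and 0.64, Rpl15 at 0.68 and 0.90, Rpl32 at 0.58 and 0.89 and Rpl10a at 0.56 and 0.84. On the lower side Rplp1 was at -1.20 in D2R-KO and -0.75 in D2LR-KO, and Rpl38 at -0.63 and -0.66. Rpl6 was at -0.68 and -0.55 and Rps9 at -0.60 and -0.37. With arrays scaled to a common median the higher genes became 34 in D2R-KO and 27 in D2LR-KO and none was lower, where 18.5% and 12% of all genes were higher. Other bright genes moved as well under that scaling, with medians of 0.67 in D2R-KO and 0.35 in D2LR-KO, beside 0.74 and 0.54 for the family, and Rps9 turned to 0.05 in D2R-KO. With the background taken around each spot, Rpl27a, Rpl41 and Rpl6 turned to -1.17, -0.27 and 0.18 in D2R-KO over stressed WT.

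**Figure D5:**
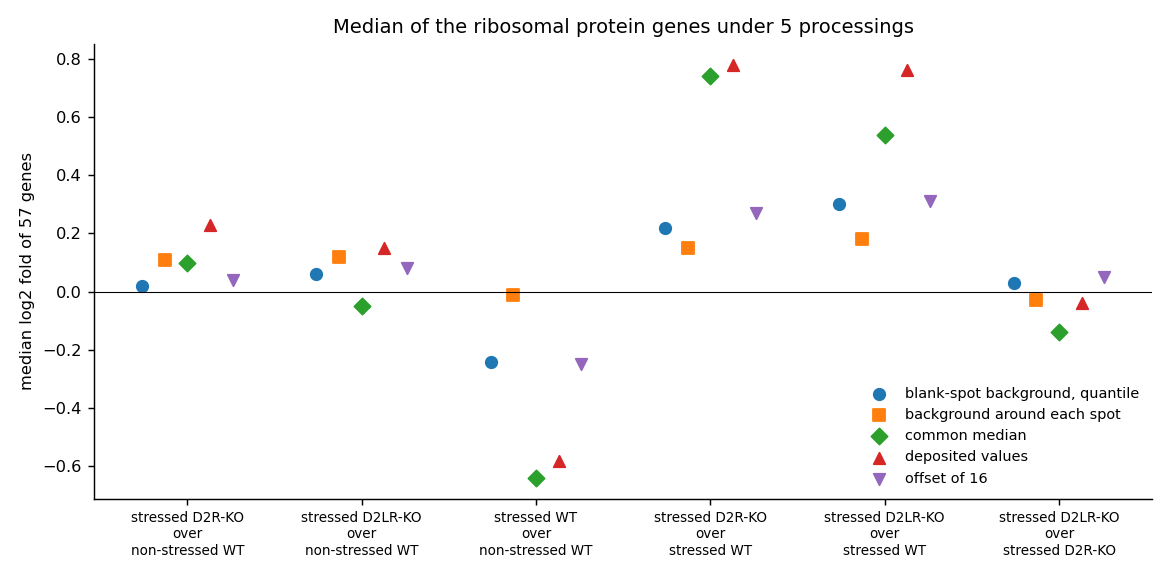
Median log2 fold of the 57 ribosomal protein genes in each comparison (horizontal) under 5 ways of computing the signal (marker shapes). For stressed WT over non-stressed WT it runs from -0.64 (common median) to -0.01 (background around each spot), and for the knockouts over stressed WT from 0.15 to 0.78.

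Several members have roles beyond the core of the ribosome. Rpl5 and Rpl11, which bind the 5S ribosomal RNA and restrain Mdm2, the regulator of p53, stayed within 1.5-fold in the 6 comparisons. Rpl11 had 3303.8 in D2R-KO, 2793.4 in D2LR-KO, 2252.0 in stressed WT and 2274.4 in non-stressed WT, with log2 folds over non-stressed WT of 0.32, 0.19 and 0.33. With the local background these became 1.99, 1.71 and 2.06, so the size for Rpl11 rests on the choice of background. The brighter Rpl5 probe had 6769.6, 5196.3, 3816.3 and 5225.0 and log2 folds of 0.13, -0.19 and -0.18. Rps14 and Rps19, both linked to inherited or acquired anaemia when deficient in humans, were at -0.38 and 0.23 in stressed WT. Rps19 was a dim probe, with 22.5 in D2R-KO, 23.4 in D2LR-KO, 40.2 in stressed WT and 32.2 in non-stressed WT. Rpl13a had 531.5, 591.5, 368.7 and 547.8 on the same arrays.

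Of the paralogs, Rpl22l1, the close relative of Rpl22, had 2098.6 in D2R-KO, 1721.2 in D2LR-KO, 693.0 in stressed WT and 1740.6 in non-stressed WT (log2 -1.01 in stressed WT). Rpl22 itself had 301.5, 326.8, 214.5 and 237.4 (log2 0.14 in stressed WT). Rps27l, a p53-responsive relative of Rps27, had 531.9, 460.1, 168.6 and 387.6 (log2 -0.84), whereas Rps27 had 5727.6, 6199.6, 3582.2 and 4565.0 (log2 0.00). In both pairs the relative was lower in stressed WT and the better-known gene was within 1.5-fold, but not with the local background, where Rps27l was at 0.63, Rps27 at 1.21 and Rpl22 at 1.07, with Rpl22l1 at -1.90. Rpl7l1, which is related to Rpl7, was at -0.30, and Rpl7 at -0.39. Rpl3l, the muscle form of Rpl3, stayed near the blank level with 4.1, 4.0, 1.9 and 3.5.

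Among the members, 3 genes had 2 probes each, and the brighter was used. In stressed WT over non-stressed WT the 2 Rpl5 probes gave -0.18 and -0.28, the 2 Rpl26 probes -0.12 and 0.17, and the 2 Rpl37a probes 0.00 and -0.33. Probes of the same gene thus differed by up to 0.33 in that comparison. They lay further apart in others, as in D2LR-KO over stressed WT, where the Rpl26 probes gave 0.42 and -0.14. Ribosomal protein genes have many processed pseudogenes of near-identical sequence, and the probe sequences were not analysed here, so signal shared with such copies cannot be told apart. After Rps12, the smallest log2 ranges over the 4 arrays after quantile normalization were those of Rpl37a (0.10), Rpl3l (0.12), Rpl35 (0.13) and Rpl10 (0.13). Of these Rpl37a and Rpl35 are bright. Their deposited intensities spread more widely, from 2242.3 to 3362.0 for Rpl37a and from 1101.8 to 1649.8 for Rpl35. The second Rpl37a probe had a range of 0.46, so the small value for that gene rests on 1 of 2 probes.

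The genes were also divided by position and by start sequence. The targeted gene Drd2 lies on chromosome 9, as do 7 of the 57 genes, namely Rpl4, Rpl14, Rpl29, Rplp1, Rps25, Rps27l and Rpsa. Their median log2 fold over non-stressed WT was 0.12 in D2R-KO and 0.06 in D2LR-KO, against 0.02 and 0.07 for the 50 genes elsewhere. Rplp1 was the 1 of 7 past 1.5-fold there. Over stressed WT the medians of the 7 were 0.68 in D2R-KO and 0.53 in D2LR-KO, against 0.21 and 0.29 elsewhere. In D2R-KO 4 of the 7 were higher and 1 lower (all genes 9.29% and 8.62%). In D2LR-KO 3 were higher and 1 lower (all genes 8.7% and 8.19%). On the shared stressed WT array the 7 had a median of -0.44 over non-stressed WT, against -0.24 elsewhere. Of the 11 genes with a TOP run shown above, 3 were lower and 1 higher in stressed WT (median 0.00), against 10 lower and 2 higher of the 35 without (median -0.19). With the Ets motif 8 of 20 were lower and 2 higher (median -0.28), and without it 5 of 26 were lower and 1 higher (median -0.05). Beside the counts of both splits, 8.09% of all genes were lower in stressed WT and 7.26% higher. These differences between small groups were not tested.

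Other genes of the translation apparatus showed where the family stood. Fau, which encodes a ubiquitin-like protein fused to a ribosomal protein of the small subunit, had 3316.0 in D2R-KO, 3705.2 in D2LR-KO, 1823.4 in stressed WT and 3118.8 in non-stressed WT (log2 -0.46 in stressed WT). Of 14 measured translation and related genes whose mRNAs belong to the TOP class, 4 were at least 1.5-fold lower in stressed WT and 1 higher (median -0.38). Of all genes 8.09% were lower and 7.26% higher. The elongation factor gene Eef1b2 was at -1.29, the nucleolar chaperone gene Npm1 at -1.29, Nap1l1 at -1.08 and Eif3s6 (now Eif3e) at -1.65, while Btf3 was at 0.67. Eef1a1, with intensities of 14194.4 to 16526.4, was at 0.04. None of the 14 reached 1.5-fold in D2R-KO or D2LR-KO over non-stressed WT. Few of all genes did (0.575% and 0.743% higher, 1.48% and 1.4% lower).

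Of 18 measured ribosome biogenesis genes, 5 were lower in stressed WT and 2 higher (median -0.08), with the methyltransferase gene Fbl at -1.31, Nip7 at -0.84, Nob1 at 0.96 and Ubtf at 0.84. Of 13 genes that signal growth to ribosomes, 2 were lower and 1 higher, with Ddit4, a stress-induced inhibitor of mTOR, at -2.04 in D2R-KO, -2.25 in D2LR-KO and -1.76 in stressed WT over non-stressed WT. Rheb, the GTPase that activates mTOR, was at -0.84 in stressed WT. The 74 genes of the mitochondrial ribosome, a separate particle, had 5 lower and 4 higher in stressed WT and a median of -0.04. Beside these counts, 8.09% of all genes were lower in stressed WT and 7.26% higher. Differences between these lists and the family were not tested.

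Markers of other cells also differed on these arrays. In stressed WT over non-stressed WT all 4 endothelial markers were below 0 (median -0.88, 3 at least 1.5-fold lower), as were 4 of 4 choroid plexus markers (median -1.01, with Ttr at -0.91) and 4 of 4 meningeal markers (median -0.96). Neuron markers had 1 of 4 lower, Snap25 at -1.01 (median -0.25), astrocyte markers none of 4 (median -0.12) and microglia markers none of 4 (median 0.00). Of 3 oligodendrocyte markers 1 was higher, Mag at 1.15, with Mbp at 0.47 and Mobp at -0.38 (median 0.47). In the knockouts over non-stressed WT choroid plexus markers were lower too (4 of 4 in each, with Ttr at -8.09 in D2R-KO and -5.94 in D2LR-KO), pituitary markers were higher in D2R-KO (3 of 3) and meningeal markers higher in D2LR-KO (3 of 4), while the ribosomal protein medians were 0.02 and 0.06. Alas2, the red blood cell marker measured, was within 0.24 of 0 against non-stressed WT on every array. Beside these counts, 8.09% of all genes were at least 1.5-fold lower in stressed WT over non-stressed WT and 7.26% higher. In D2R-KO 0.575% of all genes were higher and 1.48% lower, and in D2LR-KO 0.743% and 1.4%. The part of any cell type in the ribosomal protein values was not tested.

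Comparisons that share no array were also set side by side across the 57 genes. Log2 folds of D2R-KO over stressed WT and of D2LR-KO over non-stressed WT correlated at r = 0.09, against 0.21 across all 16439 genes. Folds of D2LR-KO over stressed WT and of D2R-KO over non-stressed WT correlated at r = 0.24, against 0.27, and folds of stressed WT over non-stressed WT and of D2LR-KO over D2R-KO at r = 0.19, against 0.09. The points share probes and normalization, and these values are descriptions without a test.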

How the data were processed

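The scanner files give intensity, per the file headers, as the median of each spot and of its surround after scans at 3 gains, and no source used here says how the gains were joined. In the authors' deposited table the intensity is again linear. Tested on the values, it equals the spot median minus 36.7 to 38.8, divided by 1.51 to 2.05, which puts each array's median at 25. Per the labels' protocols, RNA was extracted with a Qiagen kit, amplified with an Ambion amino allyl kit and labelled with Cy5.

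Signal was computed from the spot medians with normexp, using 2736 blank spots as negative controls and an offset of 50 (nec, limma 3.58.1 in R 4.3.3), then log2 and quantile normalization over the gene probes. Folds are thus on the log2(signal + 50) scale, which understates differences of dim genes. A probe was detected when its spot exceeded the blank spots' mean by over 2 of their SDs (38.0 to 40.3), and a gene was compared when detected on at least 1 of the 2 arrays. The 9 probes with an unusable spot were left out, and the brightest probe stood for a gene. Of 23473 gene probes, 16631 have 1 symbol in the series' probe table and the others have none here. Older symbols in the related lists were matched through RefSeq synonyms.

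Named are the 10 genes with the largest difference per comparison, genes with fixed roles, and the 5 with the smallest range. The members and lists were chosen with earlier results of these data known. The blank-spot background was preferred because brightness around a spot followed the spot (r = 0.876 to 0.958). Alternatives were the background around each spot, a common median, the deposited values, an offset of 16, detection on both arrays and every probe counted. Steps were tested on simulated data. Tables were made in Python 3.11.15 with pandas 2.3.3.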

Additional observations from a re-analysis of the deposited data

How the results depend on the processing

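Of the values that answer a comparison, 120 of 153 recomputed under other settings stayed within 1.5 times (counts) or within the spread of control spots (medians). That total pools settings that only changed which genes or probes were counted, or which arrays were normalized. Nearly all of the 33 values that moved did so under the 4 other ways of computing the signal. With the background around each spot, genes at least 1.5-fold higher numbered 17 for D2R-KO and 17 for D2LR-KO over non-stressed WT, 15 for stressed WT over non-stressed WT (median -0.01), 9 for D2R-KO over stressed WT and 5 for D2LR-KO over D2R-KO. Lower genes numbered 4 for D2R-KO and 2 for D2LR-KO over non-stressed WT, 2 for D2R-KO over stressed WT and 4 for D2LR-KO over D2R-KO. In D2R-KO over stressed WT 7.79% of all genes were higher and 7.39% lower with that background. With a common median, stressed WT over non-stressed WT had 0 higher and 30 lower (median -0.64), where 2.68% and 16.5% of all genes were. D2R-KO over stressed WT had 34 higher and 0 lower (median 0.74, all genes 18.5% and 3.74%). D2LR-KO over stressed WT had 27 higher and 0 lower (median 0.54, all genes 12% and 4.34%). D2LR-KO over non-stressed WT had 1 lower (all genes 2.89%). From the deposited values, D2R-KO over non-stressed WT had 2 higher (median 0.23), where 7.95% of all genes were. D2LR-KO over non-stressed WT had 1 higher (all genes 6.08%) and stressed WT over non-stressed WT 28 lower (median -0.58, all genes 24.5%). D2R-KO over stressed WT had 32 higher (median 0.78, all genes 29.1%). D2LR-KO over stressed WT had 33 higher and 4 lower (median 0.76, all genes 25.3% and 23.2%). D2LR-KO over D2R-KO had 1 lower (all genes 5.27%). Medians of other bright genes were 0.23 for D2R-KO and -0.33 for stressed WT over non-stressed WT. Over stressed WT they were 0.57 in D2R-KO and 0.39 in D2LR-KO. The median of all genes moved to 0.11 for D2R-KO over stressed WT in that table. With an offset of 16, D2LR-KO over stressed WT had 4 lower, where 12.7% of all genes were. Among the 43 members with a mean deposited intensity of 100 or more that comparison had 1 lower. That last setting, adding Rps6kl1 and leaving the stressed WT array out of the normalization were chosen after seeing the data. Genes past 1.5-fold that turned with the background around each spot were Rpl10a (0.37), Rpl15 (1.17), Rpl27a (0.04), Rps18 (1.31), Rps27l (0.63), Rpl6 (-0.61) and Rpl38 (-0.02) in stressed WT over non-stressed WT, and Rpl27a (-1.17), Rpl41 (-0.27) and Rpl6 (0.18) in D2R-KO over stressed WT. Rps9 in that last comparison turned to 0.05 with a common median. The cause was not tested. Requiring detection on both arrays could change nothing, because all 57 genes were detected on all 4 arrays. Counting every probe and adding Rps6kl1, which bring in few probes, each kept the counts of the 6 comparisons within 1.5 times. Leaving out the stressed WT array did so as well for the 3 comparisons that do not use it. No paired analysis was possible because each group had 1 array. Signal near the blank level limits Rpl10, Rpl3l and Rps12.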

Other observations

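Rps6kl1, the kinase-named gene caught by the symbol pattern, had deposited intensities of 112.7 in D2R-KO, 88.1 in D2LR-KO, 97.3 in stressed WT and 103.9 in non-stressed WT, with log2 folds over non-stressed WT of 0.02, -0.17 and 0.09.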
